A study of Mus musculus with 6 samples.

Results

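The renin-angiotensin and mineralocorticoid genes measured here were 9 genes, taken by name and found in the deposited table by NCBI gene identifier, out of 18191 genes listed. They were *Agt*, *Ren1*, *Ace*, *Agtr1a*, *Agtr1b*, *Agtr2*, *Mas1*, *Atp6ap2* and *Nr3c2*. The RNA came from whole aortas of male mice, in 3 wild type (WT) libraries and 3 libraries of *Npr1*+/- mice, heterozygous for a knockout of *Npr1* made with CRISPR-Cas9. Both genotypes were numbered 1 to 3 in the labels, and values are given in that order throughout. The labels do not say that libraries of the same number belong together. The age and strain of the mice and the site of the edit are not given in the sources used here. *Npr1* encodes the receptor for atrial and B-type natriuretic peptides, and the comparison asked whether the aortic RNA of these genes differed when a copy of that receptor was missing.

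In the renin-angiotensin system, renin cuts angiotensinogen and angiotensin converting enzyme trims the product to angiotensin II, a peptide that contracts arteries and drives aldosterone release. Angiotensin II acts on AT1 and AT2 receptors, and aldosterone acts inside cells on the mineralocorticoid receptor. Natriuretic peptides are known to oppose this system through cyclic GMP, and the vessel wall itself carries the converting enzyme and the receptors.

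The estimated counts summed to between 13510970 and 16664343 per library, and 3 counts, taken as the floor of detection, corresponded to between 0.180 and 0.222 CPM (counts scaled to library size). *Npr1* had an FPKM (fragments per kilobase of transcript, scaled to library size) of 112.43, 153.33 and 151.51 in the WT libraries, beside 70.35, 109.92 and 132.95 in the *Npr1*+/- libraries. The groups overlapped, although each *Npr1*+/- library was below the WT library of its number. Smooth muscle markers summed to between 12509 and 37135 CPM, here and below with TMM scaling (trimmed mean of M values) between libraries, and were above every other marker list in each of the 6 libraries, as the tissue label has it. The library *Npr1*+/- 1 stood apart, with the lowest smooth muscle sum and with 11 of 11 neuron markers at their highest level of the series. In RNA of a whole vessel, fewer cells of a type and less RNA per cell cannot be told apart.

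Levels between genes were compared per length, as FPKM. In WT aortas the order was *Ace*, *Atp6ap2*, *Nr3c2*, *Agtr1a*, *Ren1*, *Agtr1b*, *Mas1*, *Agt* and *Agtr2*. *Ace* was at 106.5 ± 9.68 FPKM (SD, n = 3), higher than 96.0% of all listed genes, and *Atp6ap2* was at 23.8 ± 0.710 FPKM (SD, n = 3). Each of these was above its next gene in every WT library. The ranges of *Nr3c2*, *Agtr1a*, *Ren1*, *Agtr1b*, *Mas1* and *Agt* overlapped between neighbours, so their order is not resolved beyond the spread between libraries. *Agt* was above *Agtr2* in every WT library. In *Npr1*+/- aortas *Ace* and *Atp6ap2* again led, and *Agt* was at rank 3 by a mean that 1 library set.

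**Figure D1:**
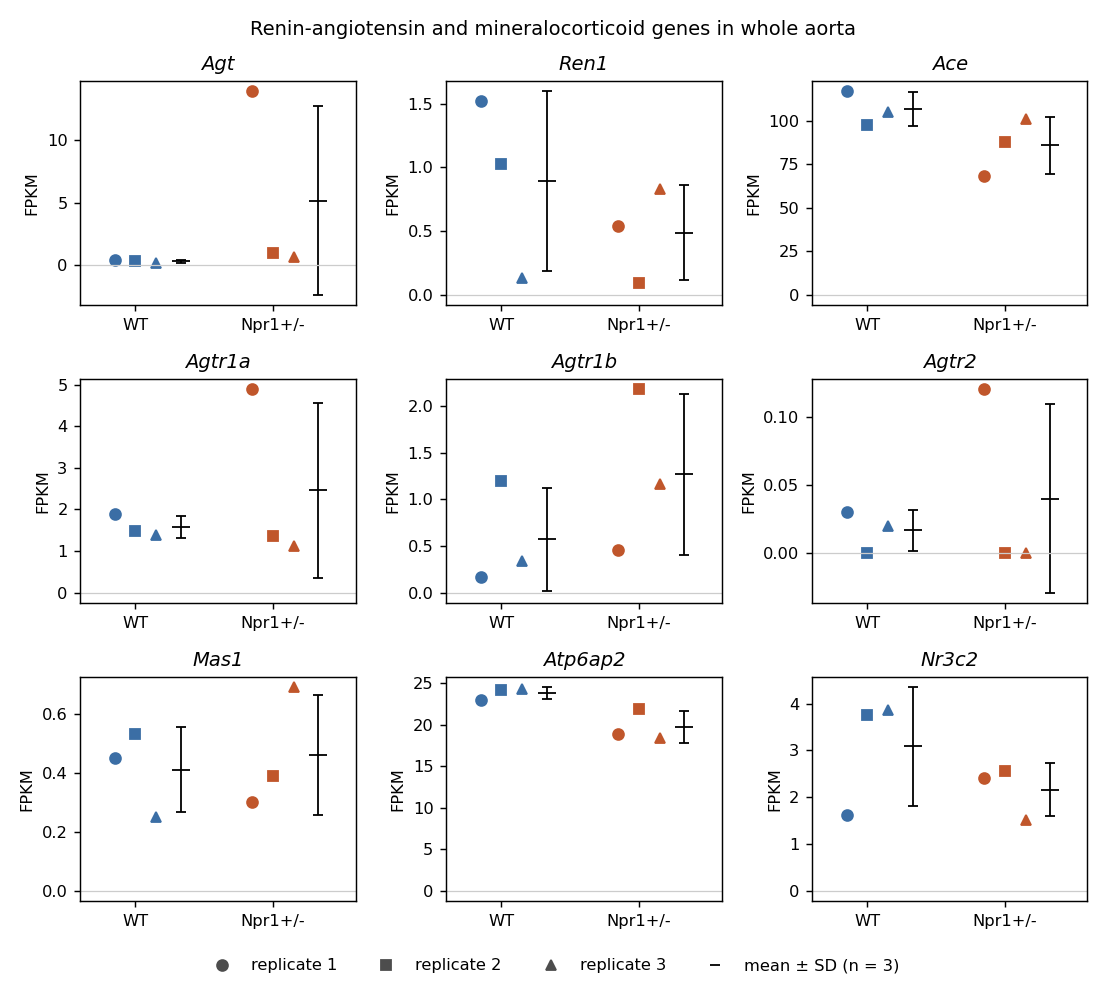
FPKM of the 9 genes (y axis, linear, a scale of its own per panel) in WT and *Npr1*+/- aortas, with 1 symbol per library shaped by replicate number and the mean ± SD (n = 3) beside each group. *Agt* reached 13.91 in *Npr1*+/- 1 against at most 0.99 elsewhere, and the *Npr1*+/- values of *Ace* did not all lie below those of WT on this scale.

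A gene was called when its adjusted p was under 0.05 and its absolute log2 fold change at least 0.5, in the quasi-likelihood test of edgeR, with Benjamini-Hochberg adjustment over the 13938 genes tested. Of the 9 genes, 8 passed the filter on low counts and *Agtr2* did not. Of these 8, 0 were called, against 0% of all tested genes, and with the labels' numbers as a block again 0, against 0%. At an unadjusted p under 0.05 from edgeR there was 1 of 8 (*Agt*), against 2.96% of all tested genes. Under the block there were 3 of 8 (*Agt*, *Agtr1b* and *Ace*), against 12.4%. Log2 fold changes were positive for 4 genes and negative for 4, with a median of -0.08 where that of all tested genes was 0.01. In CPM, 3 of the 8 did not overlap between the genotypes, against 7.48% of all tested genes. They were *Agt*, which was higher in *Npr1*+/- aortas (3.9% of all tested genes were so), and *Ace* and *Atp6ap2*, which were lower (3.58%). All 3 pairs of the same number differed in a single direction for 4 of the 8, these 3 and *Agtr1b*, against 34.4% of all tested genes.

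**Figure D2:**
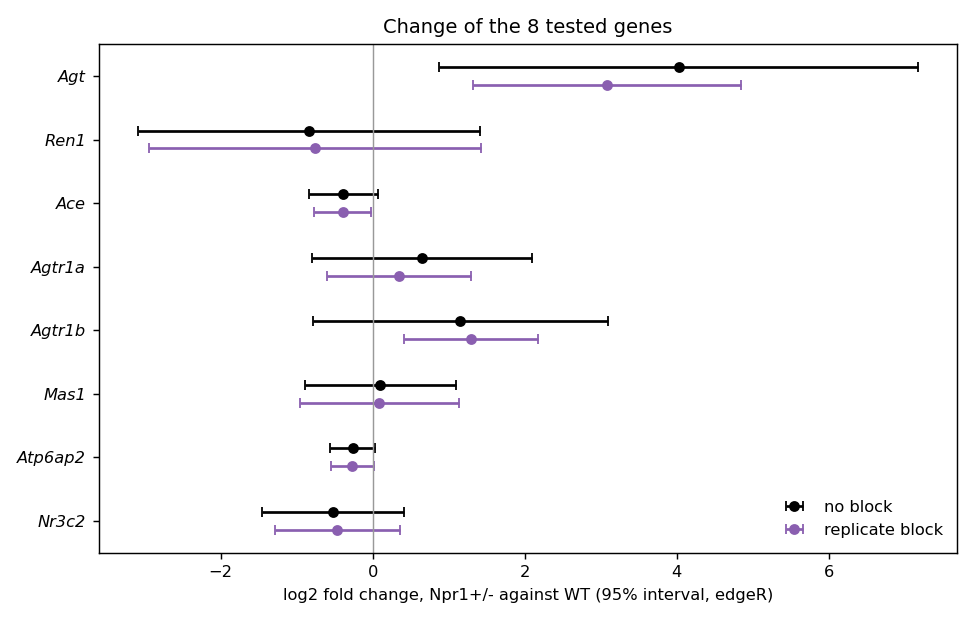
Log2 fold change of *Npr1*+/- against WT (x axis) with its 95% interval for the 8 tested genes, from edgeR without a block (black) and with the block (purple). Without the block, the interval of *Agt* (0.87 to 7.18) was the only one that left out 0.

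*Agt* (NCBI gene 11606, chromosome 8 of GRCm38 from 124556534 to 124569706, minus strand) encodes angiotensinogen, the precursor of all angiotensin peptides. The WT libraries held 0.40, 0.38 and 0.20 FPKM and the *Npr1*+/- libraries 13.91, 0.99 and 0.64 FPKM. Every *Npr1*+/- library was above every WT library, and *Npr1*+/- 1 was far above the other 5. These values rest on 10, 11 and 6 counts in WT and on 369, 29 and 18 counts in *Npr1*+/- aortas. Set against its WT partner of the same number, each *Npr1*+/- library held 3606%, 270% and 309% of the *Agt* CPM. The log2 fold change was 4.03 (standard error, SE, 1.32, unadjusted p = 0.0197, adjusted p = 0.999, edgeR). On log2 CPM an exact permutation test, two-sided, gave p = 0.1, the smallest that 3 libraries against 3 allow.

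The size of this difference rested on 1 library. Without *Npr1*+/- 1 the log2 fold change of *Agt* was 1.31 (95% interval 0.12 to 2.50, unadjusted p = 0.0364, adjusted p = 0.999, edgeR). With the replicate block it was 3.09 (SE 0.75, adjusted p = 0.180, edgeR). DESeq2 with the block, tried only once the data had been seen, called *Agt* (log2 fold change 2.77, adjusted p = 0.00367) and no other of the 8 genes, against 1.81% of the genes it tested. DESeq2 without the block called 0 of the 9 genes, against 0.0942%, and gave *Agt* no p-value.

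Markers of other cell types were also high in *Npr1*+/- 1. The 11 neuron markers summed to 579.9 CPM there, against 81.6 and 84.4 in the other *Npr1*+/- libraries and 78.4 to 98.6 in WT. In these other 5 libraries, 2 or 3 of the 11 were at 0. The 6 Schwann cell markers summed to 227.2 CPM in *Npr1*+/- 1 and to between 23.3 and 50.2 elsewhere. The 6 markers of white and general fat were all at their highest there, with a sum of 8868 CPM against 1056 to 5304 elsewhere. WT 1 had the next highest sum of these fat markers, at 5304 CPM. *Agt* was at 0.729, 0.679 and 0.371 CPM in the WT libraries. The 6 brown fat markers summed to 2998 CPM in *Npr1*+/- 1, 3084 CPM in WT 1 and between 458.1 and 914.2 CPM elsewhere. Of these 6, 3 were at their highest in *Npr1*+/- 1. The part of these cells in the level of *Agt* was not tested.

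**Figure D3:**
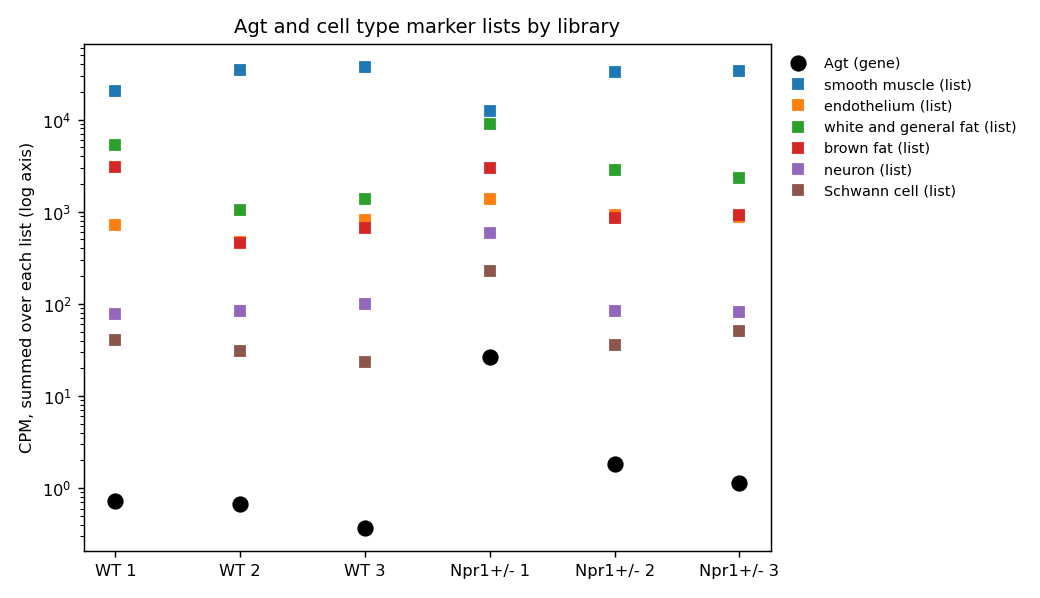
*Agt* (black circles) and the summed CPM of 6 lists of cell type markers (squares, 1 colour per list) in each of the 6 libraries, on a log axis. *Npr1*+/- 1 held the highest *Agt* (26.3 CPM), neuron (579.9 CPM) and Schwann cell (227.2 CPM) values and the lowest smooth muscle value (12509 CPM).

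*Ren1* (NCBI gene 19701, chromosome 1 from 133350510 to 133360325, plus strand) encodes renin, the protease that opens the cascade and is made mainly in the kidney. WT libraries had 29, 23 and 3 counts and *Npr1*+/- libraries 11, 2 and 18 counts. The groups overlapped fully, and WT 3 and *Npr1*+/- 2 were at or under the floor of 3 counts. Its log2 fold change of -0.84 had a 95% interval from -3.09 to 1.41 (adjusted p = 0.999, edgeR), so that neither a large rise nor a large fall could be told at this depth. The 4 kidney markers analysed here summed to between 0.445 and 1.79 CPM over all libraries. Some mouse strains carry a further renin gene, and the strain used is not given in the sources used here.

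*Ace* (NCBI gene 11421, chromosome 11 from 105967945 to 105989964, plus strand) encodes angiotensin converting enzyme, a peptidase of the endothelial surface that also inactivates bradykinin. The WT libraries held 463.8, 405.4 and 471.4 CPM and the *Npr1*+/- libraries 285.0, 355.2 and 385.6 CPM. All 3 *Npr1*+/- libraries were below all WT libraries in CPM, whereas in FPKM *Npr1*+/- 3 (101.14) was above WT 2 (97.61). The *Npr1*+/- mean was 76.5% of that of WT, at 61.5%, 87.6% and 81.8% within the pairs of the same number. The log2 fold change was -0.39 (SE 0.19, 95% interval -0.84 to 0.07, unadjusted p = 0.0846, adjusted p = 0.999, edgeR). With the block it was the same size, -0.39 (SE 0.16, unadjusted p = 0.0411, adjusted p = 0.374, edgeR). Leaving out each library in turn moved it between -0.48 and -0.29.

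Between the genotypes, endothelial markers took the opposite course. The 7 of them summed to between 467.2 and 822.6 CPM in WT and to between 872.6 and 1358 CPM in *Npr1*+/- aortas, with 7 of 7 at their highest in *Npr1*+/- 1, where *Ace* was at its lowest. Smooth muscle markers were lowest in the same library. Among the WT libraries the endothelial sum (714.2, 467.2 and 822.6 CPM) and *Ace* ran in the same order, lowest in WT 2 and highest in WT 3. How these shifts bear on *Ace* was not tested.

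*Atp6ap2* (NCBI gene 70495, chromosome X from 12587801 to 12617049, plus strand) encodes the prorenin receptor, which is also an accessory subunit of the vacuolar proton pump (V-ATPase). The WT libraries held 23.00, 24.16 and 24.29 FPKM and the *Npr1*+/- libraries 18.85, 21.90 and 18.38 FPKM. The groups did not overlap, and the SD of the WT libraries was 0.710 FPKM. *Atp6ap2* had a log2 fold change of -0.26 (SE 0.13, 95% interval -0.56 to 0.04, unadjusted p = 0.0763, adjusted p = 0.999, edgeR). It was -0.26 without *Npr1*+/- 1 and -0.27 with the block. *Ace* and *Atp6ap2*, both lower in the *Npr1*+/- library of all 3 pairs, share that with 16.9% of all tested genes.

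*Agtr1a* (NCBI gene 11607, chromosome 13 from 30336441 to 30382867, plus strand) and *Agtr1b* (NCBI gene 11608, chromosome 3 from 20314473 to 20367177, minus strand) encode the 2 AT1 receptors of rodents, the receptors through which angiotensin II contracts vessels. Their coding sequences in GENCODE M21 are both 1080 bases long, in a single coding exon, and differ at 99 positions (90.83% identity). The longest identical run and the 90 bases with the most differences are shown because they bear on how well reads of the genes can be told apart. Lower case letters are shared between the genes and capitals mark the bases that differ. The identical run of 66 bases spans coding positions 75 to 140, at chr13:30381028-30381093 (plus strand) in *Agtr1a* and chr3:20316301-20316366 (minus strand) in *Agtr1b*.
Shared by Agtr1a and Agtr1b: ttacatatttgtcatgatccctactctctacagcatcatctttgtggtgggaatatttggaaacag
The stretch with the most differences, 20 of 90, spans coding positions 972 to 1061, at chr13:30381925-30382014 in *Agtr1a* and chr3:20315380-20315469 in *Agtr1b*.
Agtr1a: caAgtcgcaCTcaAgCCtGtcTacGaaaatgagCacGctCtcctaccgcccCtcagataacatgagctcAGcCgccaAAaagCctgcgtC
Agtr1b: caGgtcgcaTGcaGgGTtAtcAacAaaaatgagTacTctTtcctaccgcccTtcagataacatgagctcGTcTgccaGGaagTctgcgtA
Of all 50-base windows of the coding sequence, 3.20% were identical between the genes, and of 100-base windows 0%. No 50-base window after the stop codon was shared.

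RSEM splits a read that fits several genes between them, and the deposited counts show such a split here. *Agtr1a* was given 55.01, 49.10 and 52.81 counts in the WT libraries against 153.74, 47.38 and 35.99 in the *Npr1*+/- libraries. *Agtr1b* was given 4.99, 40.90 and 12.19 counts in the WT libraries against 14.26, 74.62 and 38.01 in the *Npr1*+/- libraries. Each gene's counts were not whole in 4 libraries, yet the sums were whole numbers, at 60, 90 and 65 in WT and 168, 122 and 74 in *Npr1*+/- aortas, within 0.011 counts. In WT 1 and *Npr1*+/- 3 each gene was itself within that tolerance of a whole number, so only the other 4 libraries bear on a split. No other listed gene completed either of them in this way. The values of each gene are therefore uncertain to the extent of the shared reads, while their sum is not.

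*Agtr1b* took 8.32%, 45.4% and 18.8% of the AT1 counts in the WT libraries, and 8.49%, 61.2% and 51.4% in those of *Npr1*+/- mice. The 95% Wilson intervals, which cover counting error only, ran from 3.61% to 18.1% in WT 1, from 35.7% to 55.8% in WT 2 and from 10.9% to 29.6% in WT 3. WT 2 thus differed from the other WT libraries by more than counting error, whereas the intervals of WT 1 and WT 3 overlapped, and both libraries numbered 1 had nearly the same share. The share was higher in the *Npr1*+/- library of all 3 pairs, by little in the pair numbered 1, and the ranges of the genotypes overlapped (24.2% ± 19.1 in WT and 40.3% ± 28.0 in *Npr1*+/-, SD, n = 3, exact two-sided permutation test, p = 0.4).

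**Figure D4:**
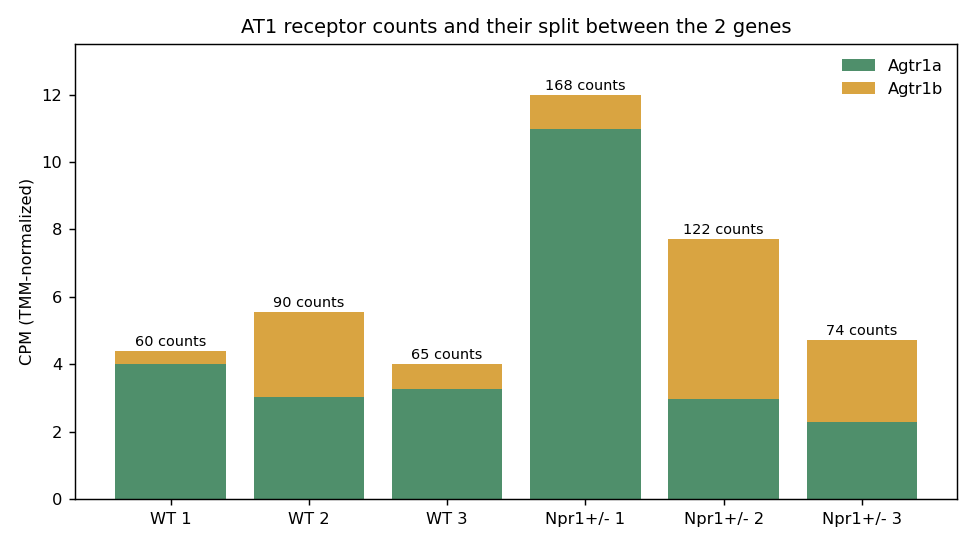
CPM of *Agtr1a* (green) and *Agtr1b* (yellow) stacked for each of the 6 libraries, with the summed count above each bar. The sums ran from 4.02 to 5.55 CPM in WT and from 4.70 to 12.0 CPM in *Npr1*+/- aortas, and *Agtr1b* made up the smallest share of the bar in both libraries numbered 1.

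*Agtr1a* had a log2 fold change of 0.65 (SE 0.61, adjusted p = 0.999, edgeR) and it turned to -0.40 without *Npr1*+/- 1, the library with 4.89 FPKM against 1.13 to 1.88 in the other 5. That of *Agtr1b* was 1.15 (SE 0.81, adjusted p = 0.999, edgeR), with the *Npr1*+/- library higher in 3 of 3 pairs, a pattern held by 17.5% of all tested genes. With the block it was 1.29 (SE 0.38, unadjusted p = 0.0103, adjusted p = 0.244, edgeR). Without the block, leaving out 1 library moved it from 0.48 (without *Npr1*+/- 2) to 2.27 (without WT 2). For the sum of both genes the log2 fold change was 0.80 (95% interval -0.07 to 1.68, unadjusted p = 0.0656, adjusted p = 0.999, edgeR), and 0.72 with the block (unadjusted p = 0.0368, adjusted p = 0.361). The sum was higher in the *Npr1*+/- library of each number, but *Npr1*+/- 3 (4.70 CPM) was below WT 2 (5.55 CPM).

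*Agtr2* (NCBI gene 11609, chromosome X from 21484544 to 21489164, plus strand) encodes the AT2 receptor, which is abundant in fetal tissue and is held to oppose AT1 signalling. WT libraries had 1, 0 and 1 counts and *Npr1*+/- libraries 5, 0 and 0. Only *Npr1*+/- 1 was above the floor of 3 counts, so that no fold is given, and AT2 RNA was not detectable at this depth in the other 5 libraries. *Mas1* (NCBI gene 17171, chromosome 17 from 12841079 to 12868143, minus strand) encodes the Mas receptor, which responds to a shorter angiotensin peptide. The WT libraries held 0.45, 0.53 and 0.25 FPKM and the *Npr1*+/- libraries 0.30, 0.39 and 0.69 FPKM, and the highest and nearly the lowest values of the series lay within the *Npr1*+/- group. *Mas1* had a log2 fold change of 0.10 with a 95% interval from -0.89 to 1.09 (adjusted p = 0.999, edgeR). Its counts were not whole in any of the 6 libraries, and no single partner gene that made them whole was found, so they carry a like uncertainty.

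*Nr3c2* (NCBI gene 110784, chromosome 8 from 76899442 to 77245012, plus strand) encodes the mineralocorticoid receptor, a nuclear receptor that binds aldosterone and also cortisol or corticosterone. The WT libraries held 1.62, 3.76 and 3.87 FPKM and the *Npr1*+/- libraries 2.40, 2.56 and 1.51 FPKM. WT 1 lay among the *Npr1*+/- values and the other WT libraries lay above all of them. *Nr3c2* had a log2 fold change of -0.52 (SE 0.39, 95% interval -1.46 to 0.42, adjusted p = 0.999, edgeR). This was -0.83 without WT 1 (unadjusted p = 0.0256, adjusted p = 0.641, edgeR) and -0.30 without WT 3. Within the pairs of the same number, *Nr3c2* CPM stood at 154%, 70.0% and 36.3% of WT. When both libraries numbered 1 were left out, a choice made after the data were seen, the blocked log2 fold change was -0.97 (SE 0.25, unadjusted p = 0.00241, adjusted p = 0.192, edgeR).

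The genes whose log2 CPM followed each of the 8 genes most closely over the 6 libraries were named by Pearson's r, as a description without a test, since 1 of the 6 libraries stands apart. For *Agt* they were *Stard8*, *C6* and *Pllp* (r from 0.991 to 0.994, Spearman's rho from 0.943 to 1), and 87 genes had an r over 0.95 with it. For *Agtr1a* they were *Kif1b*, *Smarcc2* and *Slc31a1* (r from 0.993 to 0.996, rho from 0.771 to 1), with 132 genes over 0.95. For *Ace* they were *Smc1a*, *Tspyl3* and *Prickle2* (18 genes over 0.95), for *Atp6ap2* *Tssk6*, *Cnot8* and *Klhdc1* (13 genes), and for *Nr3c2* *Tle4*, *Ern1* and *Armc8* (31 genes). For *Agtr1b* they were *Calml4*, *Abt1* and *Dcps*, for *Mas1* *Gmeb1*, *Clk4* and *Zfp874b*, and for *Ren1* *Neto1*, *Sfxn2* and *Gm10408*. None of the 9 genes was among the nearest of another.

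The other genes of the pathway were read from 6 lists. Of 86 genes on them 74 were tested, and edgeR called 0 of these, either with the block or without it. The 11 tested peptidases that form or degrade angiotensins had 5 positive and 6 negative log2 fold changes with a median of -0.00, and without the block 0 had an unadjusted p under 0.05, against 2.96% of all tested genes. With the block 1 was higher, against 7.36%, and it was *Mme*, neprilysin, named after its values were seen (0.38, SE 0.11, unadjusted p = 0.0102, adjusted p = 0.244, edgeR). It was higher in 3 of 3 pairs, as were 17.5% of all tested genes. Without *Npr1*+/- 1 the peptidases had 2 positive and 9 negative values with a median of -0.16. The median of all tested genes in that fit is not given here. In the blocked fit without both libraries numbered 1 the peptidases had 7 and 4. The most abundant were *Rnpep* and *Anpep*, aminopeptidases, with log2 fold changes of -0.01 and -0.01 (SEs 0.18 and 0.13). *Prep*, a prolyl endopeptidase, had -0.00 (SE 0.14) and *Mcpt4*, a mast cell chymase, had 0.19 (SE 0.45).

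Of 22 tested genes that couple or regulate the AT1 receptor, 10 had a positive and 12 a negative log2 fold change, with a median of -0.03. At an unadjusted p under 0.05, 1 was lower, against 1.08% of all tested genes. It was *Agtrap*, the AT1 receptor associated protein, which promotes internalization of the receptor. The WT libraries held 35.7, 35.8 and 34.3 CPM and the *Npr1*+/- libraries 26.7, 28.7 and 27.8 CPM. The groups did not overlap, and 3.58% of all tested genes were lower in this way. The *Agtrap* counts were not whole in any library, so they carry an uncertainty like that of *Mas1*. *Agtrap* had a log2 fold change of -0.35 (SE 0.11, unadjusted p = 0.0153, adjusted p = 0.999, edgeR) and it was -0.35 with the block. *Nox4*, an NADPH oxidase of vascular smooth muscle, had 118.3 ± 23.7 FPKM in WT and 80.2 ± 35.9 in *Npr1*+/- aortas (SD, n = 3). It was lowest in *Npr1*+/- 1, at 39.00 FPKM against 91.41 to 136.18 FPKM in the other libraries. Its log2 fold change was -0.56 (SE 0.38, adjusted p = 0.999, edgeR), and DESeq2 with the block called it at -0.65 (adjusted p = 0.0294). In the blocked fit without both libraries numbered 1, added after the data were seen, it was -0.40 (unadjusted p = 0.0558, adjusted p = 0.571, edgeR). With the block, 1 gene of the list was higher at an unadjusted p under 0.05 (*Rgs2*, a brake on Gq signalling, against 7.36%) and 3 were lower (*Agtrap*, *Nox4* and *Plcb1*, a phospholipase C, against 5.09%). *Rgs5*, *Rhoa* and *Cyba*, the other most abundant genes of the list, had log2 fold changes of -0.07, -0.03 and -0.16 (SEs 0.67, 0.16 and 0.20).

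The 11 tested genes known to respond to angiotensin II in vessels had 6 positive and 5 negative log2 fold changes, with a median of 0.06. In edgeR without the block 0 had an unadjusted p under 0.05, against 2.96% of all tested genes, and with the block 0, against 12.4%. *Ccn2*, a matrix growth factor, had a log2 fold change of -0.16 (SE 0.56). *Ccn1* and *Rcan1* had -0.02 and 0.25 (SEs 0.68 and 0.38). These genes varied widely between libraries of 1 genotype, with *Ccn2* at 618.8, 1419 and 1518 FPKM in the WT libraries.

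The next list held partners and targets of the corticosteroid receptors. Of 14 tested, 11 had a positive and 3 a negative log2 fold change, with a median of 0.29 beside 0.01 for all tested genes. Without the block 1 had an unadjusted p under 0.05 and was higher, against 1.88%, and with the block 7 of 14 did, all higher, against 7.36%. They were *Tsc22d3*, *Fkbp5*, *Fkbp4*, *Hsp90aa1*, *Hsd11b1*, *Lcn2* and *Pgf*. All were higher in the *Npr1*+/- library in 3 of 3 pairs, against 17.5% of all tested genes. This adds no separate support, since the fit that picked these genes was blocked on the same pairs. Of these, *Fkbp5*, *Hsd11b1*, *Lcn2* and *Pgf* fall outside the rule for named genes and were named after their values were seen, as were *Rgs2* and *Plcb1* above. Their blocked adjusted p ran from 0.124 to 0.350 (edgeR). With both libraries numbered 1 left out 5 of 14 were higher at an unadjusted p under 0.05 (*Hsd11b1*, *Fkbp5*, *Hsp90aa1*, *Tsc22d3* and *Pgf*), against 5.37%. Without *Npr1*+/- 1 alone and without the block 2 of 14 were (*Hsp90aa1* and *Pgf*), against 1.33%. The median of the list was then 0.06, and that of all tested genes in this fit is not given here. Marker lists of other cells did not move in a single direction. White and general fat markers summed to 5304, 1056 and 1385 CPM in the WT libraries against 8868, 2831 and 2303 CPM. Endothelial markers summed to 714.2, 467.2 and 822.6 CPM against 1358, 924.6 and 872.6 CPM. Both sums were higher in the *Npr1*+/- library of all 3 pairs. Smooth muscle markers were lower in all 3 pairs, at 20294, 34476 and 37135 CPM against 12509, 32820 and 33742 CPM. Fibroblast and macrophage markers were lower in the pairs numbered 1 and 2 and higher in the pair numbered 3. The part of these cells in the values of the list was not tested.

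*Tsc22d3*, a leucine zipper protein induced by glucocorticoids, stood at 54.62, 37.59 and 41.17 FPKM in the WT libraries against 113.70, 51.83 and 70.44 FPKM in the *Npr1*+/- libraries. WT 1 was above *Npr1*+/- 2, so the groups overlapped. Its log2 fold change was 0.84 (SE 0.32, unadjusted p = 0.0367, adjusted p = 0.999, edgeR) and 0.78 with the block (SE 0.14, unadjusted p = 0.000789, adjusted p = 0.124). *Fkbp5*, a chaperone partner and target of steroid receptors, had 0.64 (SE 0.39, adjusted p = 0.999, edgeR) and 0.70 with the block (SE 0.16, adjusted p = 0.162). DESeq2 with the block called both, at 0.78 and 0.70 (adjusted p = 0.000883 and 0.0164). *Hsp90aa1*, *Hsp90ab1* and *Fkbp4*, which hold the unliganded receptors, had log2 fold changes of 0.54, 0.33 and 0.35 (SEs 0.43, 0.30 and 0.23).

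*Sgk1* and *Nr3c1* were named for their role and after their values were seen. *Sgk1*, a kinase induced by aldosterone, had a log2 fold change of -0.02 (SE 0.21). *Nr3c1*, the glucocorticoid receptor, was at 23.2 ± 2.07 FPKM in WT and 19.5 ± 2.69 in *Npr1*+/- aortas (SD, n = 3), with a log2 fold change of -0.24 (SE 0.15, adjusted p = 0.999, edgeR). The ratio of *Nr3c2* to *Nr3c1* in FPKM was 0.130 ± 0.0453 in WT and 0.113 ± 0.0385 in *Npr1*+/- aortas (SD, n = 3). *Star*, which carries cholesterol to the site of steroid synthesis, was the only tested gene of the synthesis list and had a log2 fold change of 0.10 (SE 0.24).

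The 15 tested subunits of the V-ATPase, the pump that *Atp6ap2* belongs to, had 12 positive and 3 negative log2 fold changes, with a median of 0.07. Without the block 0 had an unadjusted p under 0.05, against 2.96% of all tested genes. *Atp6v0b* and *Atp6v1g1*, named after their values were seen, were higher in *Npr1*+/- aortas without overlap, against 3.9% of all tested genes. With the block 1 subunit was higher at an unadjusted p under 0.05, against 7.36%, and it was *Atp6v1b2*, also named after its values were seen (0.45, SE 0.17, unadjusted p = 0.0281, adjusted p = 0.333, edgeR). *Atp6ap2* itself, at -0.26, was below all of them. *Atp6ap1*, the other accessory subunit, had -0.10 (SE 0.17), and *Atp6v0c*, *Atp6v0e* and *Atp6v1f* had 0.05, 0.08 and 0.02 (SEs 0.14, 0.14 and 0.12). Without *Npr1*+/- 1 the subunits had 5 positive and 10 negative values, and in the blocked fit without both libraries numbered 1 they had 11 and 4. The shares of all tested genes by sign in these fits are not given here.

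**Figure D5:**
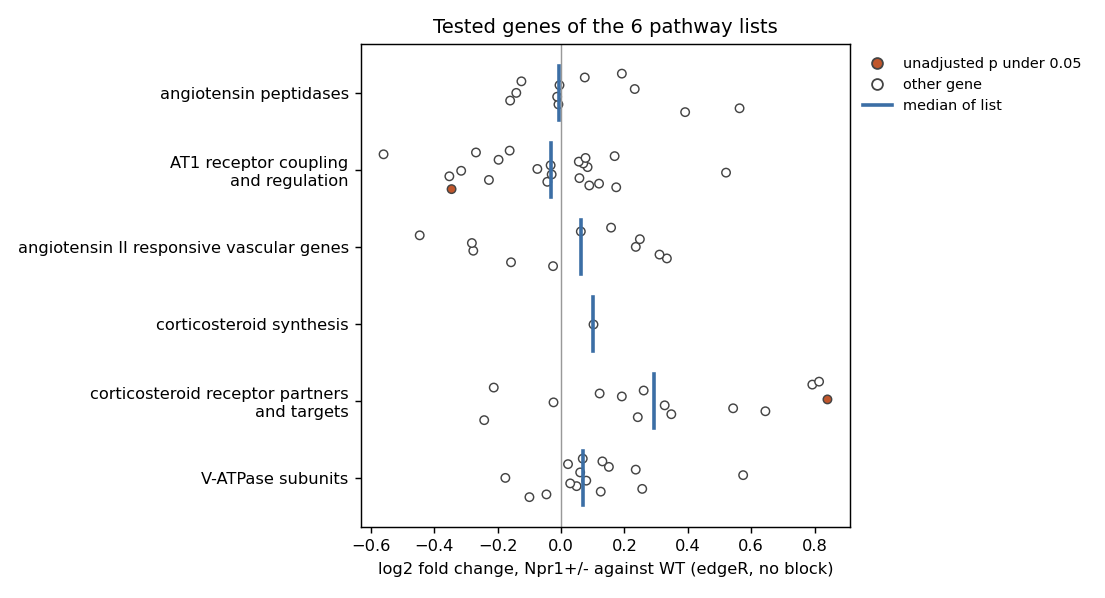
Log2 fold change of *Npr1*+/- against WT (x axis, edgeR without a block) for each tested gene of the 6 pathway lists, with filled circles at an unadjusted p under 0.05 and a vertical line at the median of each list. The medians lay between -0.03 and 0.10 except for the corticosteroid receptor partners and targets, at 0.29.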

How the data were processed

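Per the labels and the study's methods, reads were filtered with SOAPnuke, aligned to a coding gene set with Bowtie2 and counted with RSEM, on the build mm10. The authors deposited estimated counts, without normalization, and FPKM, scaled by transcript length and library size, for 18191 genes. The authors' means per genotype were not used.

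Estimated counts were rounded and tested in R 4.3.3 with edgeR 4.0.16 (TMM, minimum count 10, quasi-likelihood test, Benjamini-Hochberg adjustment over 13938 genes). CPM used TMM-scaled sizes, and log2 CPM a prior count of 2, or 0.1 added for permutation tests. The study gives 3 per genotype, which reads as 3 mice, but whether each library is 1 mouse is not stated, so p-values measure the spread between these libraries. Alternatives were DESeq2 1.42.0, limma 3.58.1 on log2(FPKM + 0.1) or log2(FPKM + 1), other filters, the block, summed AT1 counts and each library left out. The tests were run on simulated counts without pairing and without a library that stands apart. A pass was required only of edgeR without the block, and DESeq2 with the block was not run on them. The simulation thus does not bear on the block or on *Npr1*+/- 1.

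Deviations from genotype means correlated at 0.64, 0.39 and 0.24 between libraries numbered 1, 2 and 3, all over 0.1, so the numbers were taken as pairs. Between different numbers the values ranged from -0.58 to 0.44. WT 3 correlated more with *Npr1*+/- 2 (0.44) than with *Npr1*+/- 3, and WT 2 correlated at 0.37 with *Npr1*+/- 3. With the numbers 2 and 3 exchanged, the values would thus also have been over 0.1, so the check singles out only the pair numbered 1. For the numbers 2 and 3 the pairing, and with it the block and the values within pairs, rests on the labels' numbers alone.

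Coordinates are of GENCODE M21 (GRCm38), and symbols, found for 18070 genes, of RefSeq. The 9 genes, the lists and the tests were chosen with earlier results of these data known. Of each list, genes with an unadjusted p under 0.05 and the 4 with the highest FPKM were named, and the 3 genes nearest to each tested member by Pearson's r. Some genes of the lists are not reported here.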

Additional observations from a re-analysis of the deposited data

How the results depend on the processing

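With edgeR, 0 genes of the table, 0 of the 9 genes and 0 of the pathway lists were called, and this held with DESeq2's size factors, without a filter, without a minimum fold change, with limma on FPKM in 3 versions, with the replicate block and when any 1 library was left out (0 to 0). DESeq2 called 16 genes of the table and none of the 9 or of the lists. Settings added after the data were seen called more. DESeq2 with the replicate block called 265 genes, among them 1 of the 9 (*Agt*, log2 fold change 2.77) and 3 of the lists (*Nox4*, *Fkbp5* and *Tsc22d3*), and the blocked fit without both libraries numbered 1 called 32 genes and none of the 9 or of the lists. The log2 fold change kept its direction in 119 of the alternatives for single genes without a change of call. It turned for *Agtr1a* without *Npr1*+/- 1 (-0.40, within a range up to 1.01 over the fits without 1 library) and in the blocked fit without both libraries numbered 1 (-0.27), and for *Mas1* without *Npr1*+/- 3 (-0.26) and without WT 3 (-0.16), within a range up to 0.35. *Agt* ranged from 1.31 to 4.55, lowest without *Npr1*+/- 1. Counts under 50 in a library limit *Agt*, *Ren1*, *Agtr1a*, *Agtr1b*, *Agtr2* and *Mas1*.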

Other observations

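Some pathway genes were too low for the test, and their counts are given as values. *Hsd11b2*, the enzyme that keeps glucocorticoids from the mineralocorticoid receptor in kidney, had 6, 6 and 4 counts in the WT libraries numbered 1 to 3 against 6, 1 and 6 in the *Npr1*+/- libraries. *Hsd11b1*, which regenerates active glucocorticoid, was far more abundant, with 1791, 558 and 675 counts in the WT libraries against 2051, 750 and 800, highest in both libraries numbered 1. Of the steroid synthesis genes, *Cyp11b1* had 0 counts in 5 libraries and 1 in *Npr1*+/- 1, and *Cyp11a1* had between 2 and 9. The epithelial sodium channel subunits *Scnn1b* and *Scnn1g* had at most 7 and 4 counts. These genes were named after their values were seen.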
